A study of Mus musculus with 2 samples.

Results

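Interferon-stimulated genes are the genes that cells switch on when an interferon binds its receptor. A set of 42 of them, chosen by symbol as antiviral and GTPase genes whatever their level, was followed in MS1 cells with and without knockdown of Pspc1. Of the 42 genes, 32 were among the 11405 genes listed in both deposited tables. The other 10 (Oas2, Herc6, Mx1, Mx2, Ifih1, Ddx60, Zbp1, Ifi203, Gbp7 and Ifi44) were not listed there and have no values here. MS1 cells are immortalised islet endothelial cells of the mouse. In the control group, labelled wild type, a lentivirus delivered a hairpin against LacZ, which is not a mouse gene. In the knockdown group it delivered a hairpin against Pspc1, which encodes an RNA-binding protein of paraspeckles. Infection with a hairpin lentivirus was thus common to both groups, and no uninfected library was analysed here. The hairpin sequences are not given in the labels. Each group was 1 library of poly-A RNA from a single cell line, so no value has a replicate error and no test between the conditions was possible.

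Type I interferons signal through the receptor chains Ifnar1 and Ifnar2 to the kinases Jak1 and Tyk2. These activate STAT proteins, among them Stat2, which join Irf9 and bind a DNA motif, the interferon-stimulated response element (ISRE), at the target genes. Interferon gamma uses the receptor chains Ifngr1 and Ifngr2 and a STAT dimer that binds the gamma-activated site (GAS). The target genes include binders of viral RNA (among the IFIT proteins), synthetases of the messenger 2-5A (OAS proteins), the ubiquitin-like modifier Isg15, and GTPases that act on the membranes around microbes. In endothelium many of them are expressed at a low level until interferon arrives.

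The set did not move as a block. The log2 ratios of the 4 IFIT genes and of the neighbours Rsad2 and Cmpk2 (knockdown over control) lay below 0 with their 95% intervals for counting error, while those of the synthetases Oas3, Oas1a and Oas1g and of the GTPases Gbp2, Igtp and Irgm1 lay above 0 with theirs. Most of these differences were under 1.5-fold or in genes of low value, and only Oas3 and Rsad2 among them met the size rule used for the members. Promoters of 3 lower and 3 higher members are shown because they carry the same ISRE core in both directions. The core was searched on both strands as GAAA, any 2 bases and GAAA again, and the capitals mark every match, overlapping matches included. Each window runs from 250 bases before to 50 bases after the gene's start, in the direction of the gene, with sequence from RefSeq on GRCm38.p6. The first 3 belong to members that were lower in the knockdown library and the last 3 to members that were higher.
Ifit1, chr19:34640639-34640938, plus strand: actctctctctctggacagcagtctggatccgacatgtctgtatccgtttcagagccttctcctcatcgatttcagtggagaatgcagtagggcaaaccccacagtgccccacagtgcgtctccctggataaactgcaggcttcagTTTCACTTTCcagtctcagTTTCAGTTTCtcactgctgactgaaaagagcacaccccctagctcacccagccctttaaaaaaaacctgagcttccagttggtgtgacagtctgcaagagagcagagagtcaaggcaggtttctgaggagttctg
Ifit3, chr19:34583279-34583578, plus strand: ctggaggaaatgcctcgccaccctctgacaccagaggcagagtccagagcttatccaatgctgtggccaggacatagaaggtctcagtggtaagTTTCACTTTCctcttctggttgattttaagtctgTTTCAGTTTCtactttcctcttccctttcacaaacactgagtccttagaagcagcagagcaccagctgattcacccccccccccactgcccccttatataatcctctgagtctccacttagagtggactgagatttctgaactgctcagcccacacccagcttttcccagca
Rsad2, chr12:26456403-26456702, minus strand: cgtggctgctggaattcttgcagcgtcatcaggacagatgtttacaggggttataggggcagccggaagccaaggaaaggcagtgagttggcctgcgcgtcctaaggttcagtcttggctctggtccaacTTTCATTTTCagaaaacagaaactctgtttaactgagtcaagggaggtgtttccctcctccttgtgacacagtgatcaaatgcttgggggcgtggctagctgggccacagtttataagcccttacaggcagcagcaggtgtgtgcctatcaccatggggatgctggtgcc
Oas1a, chr5:120907476-120907775, minus strand: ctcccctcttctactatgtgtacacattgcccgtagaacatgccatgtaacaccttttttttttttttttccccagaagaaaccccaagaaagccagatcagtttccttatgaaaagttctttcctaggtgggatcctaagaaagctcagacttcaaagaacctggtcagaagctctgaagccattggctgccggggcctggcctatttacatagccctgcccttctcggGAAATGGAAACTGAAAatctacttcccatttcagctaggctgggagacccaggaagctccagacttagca
Oas3, chr5:120777610-120777909, minus strand: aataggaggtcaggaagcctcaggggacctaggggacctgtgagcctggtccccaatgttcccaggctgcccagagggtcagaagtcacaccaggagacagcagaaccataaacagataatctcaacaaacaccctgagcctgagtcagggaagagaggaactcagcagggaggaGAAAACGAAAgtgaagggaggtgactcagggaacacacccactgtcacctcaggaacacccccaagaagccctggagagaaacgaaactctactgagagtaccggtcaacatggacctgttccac
Gbp2, chr3:142620413-142620712, plus strand: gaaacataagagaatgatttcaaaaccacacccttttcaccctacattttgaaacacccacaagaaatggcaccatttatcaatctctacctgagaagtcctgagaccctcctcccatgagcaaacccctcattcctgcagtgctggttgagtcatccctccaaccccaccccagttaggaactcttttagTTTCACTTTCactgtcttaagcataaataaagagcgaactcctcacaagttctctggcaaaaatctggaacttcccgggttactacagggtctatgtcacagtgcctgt

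The matches began 104 and 85 bases before the start in Ifit1, 156 and 122 in Ifit3, and 120 in Rsad2. In Oas1a 2 overlapping matches began 20 and 14 bases before the start, in Oas3 the match began at 75 and in Gbp2 at 59. RefSeq windows were found for 30 of the 42 genes, among them 24 of the 32 listed ones. Of these 24 genes, 15 (62.5%) held the ISRE core, against 3.99% of all 27025 genes in the promoter table and 3.50% of the 8688 genes in it that the deposited tables list. The GAS motif (TTC, any 3 bases, GAA, a pattern that is its own reverse complement) was in 6 of the 24 (25%) and in 9.55% of all genes of the promoter table. The core did not separate the directions, since 8 of the 15 genes with it had a higher value in the knockdown library and 7 a lower one. The log2 ratios of the 15 ran from -0.90 for Rsad2 to 1.11 for Gbp2. Among the 9 listed genes without the core in this window, 5 were higher and 4 lower, from -0.83 for Ifit2 to 0.70 for Lgals3bp.

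The deposited values behave as gene counts divided by 1 constant per library, since each is a whole number of equal steps, and every ratio is knockdown over control on the log2 scale unless stated. The libraries held 64009912 (control) and 53518762 (knockdown) reads on the listed genes, and 1 read was worth 0.0153 and 0.0197 units of the value. Values are given in the order control, knockdown, unless a sentence says otherwise. Intervals are 95% exact counting intervals of the ratio. They cover counting error only, compare 2 libraries and not 2 conditions, and take no account of molecules read more than once. The labels held for the targeted gene: Pspc1 (ENSMUSG00000021938, mm10 chr14:56720710-56778316) had 28.8 with the LacZ hairpin and 3.78 with its own (log2 ratio -2.93, interval -3.15 to -2.71). Of 10 endothelial markers 8 were listed (Vwf and Cldn5 were not), with sums of 5186 and 4917, and 6 of the 8 had a log2 ratio below 0. By the 1.5-fold rule given below for the members, 3 of the 8 were lower and none higher, where 10.1% and 4.14% of all genes of that level were. These were Cdh5 (VE-cadherin, 859.4 and 511.2, log2 ratio -0.75), Kdr (the main receptor for VEGF, 148.9 and 77.3, -0.95) and Tek (the angiopoietin receptor, 13.6 and 7.13, -0.93). Erg, an endothelial transcription factor, had 119.4 and 84.96 (-0.49), Pecam1 2258 and 2175 (-0.05) and Tie1 1080 and 1355 (0.33). Eng, counted among those below 0, hardly differed (594.8 and 592.9, -0.005, interval -0.03 to 0.02), nor did Emcn (112.5 and 113.2, 0.01). The part of these differences in the members' values was not tested. Of 8 leukocyte markers only Cd68 (102.7 and 123.7) and Cd14 (1.07 and 1.34) were listed, and the pan-leukocyte gene Ptprc was not. None of 5 lymphocyte and plasmacytoid dendritic markers, none of 6 islet and epithelial markers and 2 of 6 fibroblast and pericyte markers (sums of 1.87 and 3.37) were listed. These 2 went opposite ways at low values. Pdgfrb had 0.720 and 2.38 (log2 ratio 1.73, interval 1.23 to 2.24) from 47 and 121 reads. Pdgfra had 1.15 and 0.985 (-0.22, -0.77 to 0.31). Lysates of whole cultures cannot tell fewer expressing cells from less RNA per cell.

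Most of the members were scarce. On a scale of value per kilobase of merged exons, their median level lay at percentile 32.8 of all listed genes, and 23 of the 32 lay below the median of all genes. Bst2 (ENSMUSG00000046718, chr8:71534255-71537456), which encodes tetherin, a membrane protein that holds budding viruses at the cell surface, was the most abundant member, with values of 492 and 569. Per kilobase this was 545 and 630, at percentile 99.2. Ifi27, which encodes a small hydrophobic membrane protein, followed with 136 and 110 per kilobase, and Oasl1, an OAS-like protein that restrains translation of Irf7, with 38.0 and 34.5. These 3 genes made up 78.3% (control) and 76.5% (knockdown) of the summed value of the 32 members. By the mean of both libraries per kilobase, next came Ifi35 (13.7 and 19.2), Oas1a (12.9 and 17.2), Isg15 (9.79 and 9.64), Lgals3bp (5.01 and 8.14), Ifi27l2a (8.44 and 2.47) and Irf9 (4.47 and 5.84). The order differed between the libraries, since Ifi27l2a lay above Lgals3bp in the control library and below Irf9 in the knockdown library. The lowest was Parp14, with 0.110 and 0.0826 per kilobase over 9306 bp of exons.

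**Figure D1:**
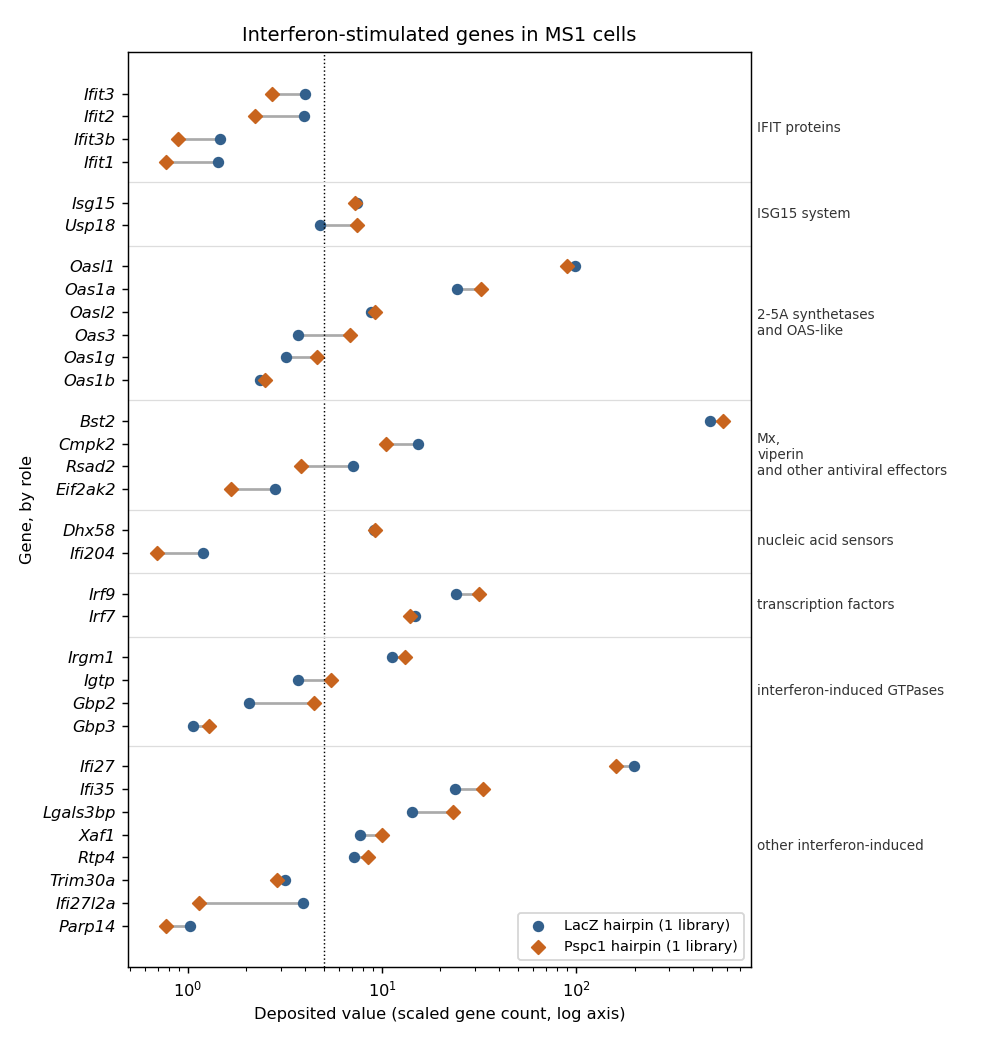
Deposited value of each of the 32 listed members in the control library (circles, LacZ hairpin) and the knockdown library (diamonds, Pspc1 hairpin), on a log axis, by role; the dotted line marks a value of 5. Bst2, Ifi27 and Oasl1 stand far above the rest, and all 4 IFIT genes have the knockdown value on the left.

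Size was read with 2 rules, since a single library per group allows no test. A member counted as higher or lower when the ratio was at least 1.5-fold and the mean of both values at least 5, which 18 of the 32 reached. By this rule 3 of 18 were higher (16.7%), Oas3, Lgals3bp and Usp18, where 4.14% of all 8633 genes of that level were. A single member of 18 was lower (5.56%), Rsad2, where 10.1% of all genes were. The nearest values on either side of the threshold were 1.57-fold for Usp18 and 1.47-fold for Cmpk2. Without a minimum mean, 4 of all 32 listed members were higher (12.5%, against 5.71% of all genes), with Gbp2 added, and 7 were lower (21.9%, against 15.2%). At a mean of at least 20, which 6 members reached, none was higher (3.84% of all genes) and none lower (5.69%). Under a stricter rule of 2-fold at a mean of at least 50, which 3 members reached, none was higher (0.551% of 3629 genes) and none lower (0.937%). Among the 18 members, 12 had a log2 ratio above 0 against 48.6% of all genes of that level, with a median of 0.22 against -0.01. Over all 32 listed members the count was 17 above 0 and 15 below, with a median of 0.05 against -0.05 for all listed genes (45.2% above 0). Of the 14 members with a mean under 5, 5 were above 0 and 9 below, and 34.6% of all 2772 genes of that level were above 0. Among these 14, 1 was at least 1.5-fold higher (10.6% of all genes of that level) and 6 at least 1.5-fold lower (31.2%). Counting intervals lay wholly above 0 for 13 of the 32 (33.3% of all genes) and wholly below 0 for 11 (41.9% of all genes), and spanned 0 for 8.

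**Figure D2:**
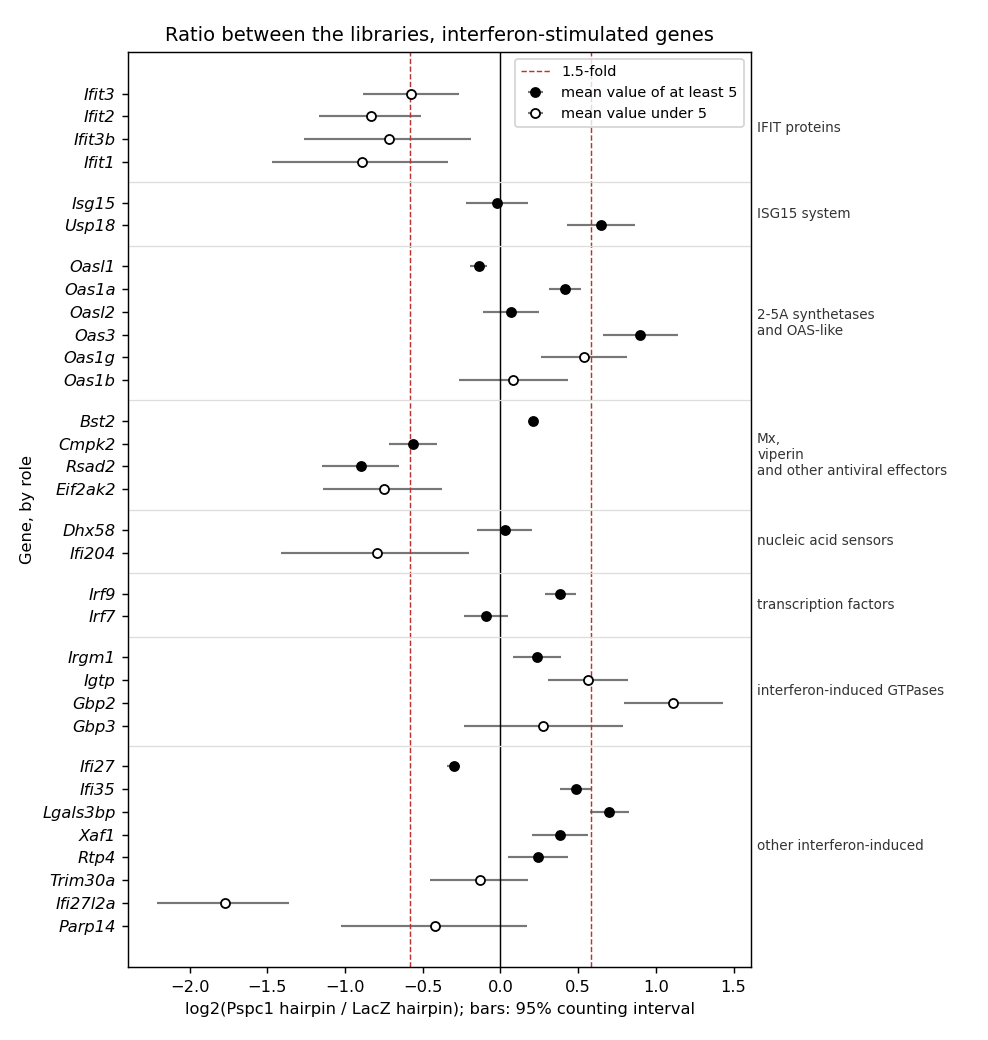
log2 ratio of knockdown over control for the 32 listed members by role, with 95% counting intervals; filled points have a mean value of at least 5, and dashed lines mark 1.5-fold. The IFIT genes lie left of 0 and the GTPases right of it, with Ifi27l2a (-1.77) and Gbp2 (1.11) at the ends.

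The IFIT genes all had a lower value in the knockdown library. Ifit1, whose protein binds viral RNA ends and blocks its translation, had values of 1.43 and 0.768 (log2 ratio -0.89, interval -1.47 to -0.34). Ifit2, whose protein is also linked to cell death, had 3.97 and 2.23 (-0.83, -1.17 to -0.51). Ifit3, which binds other IFIT proteins, had 4.01 and 2.70 (-0.57, -0.88 to -0.27). Its close copy Ifit3b had 1.46 and 0.886 (-0.72, -1.26 to -0.19). No IFIT interval reached 0, but the genes rested on only 39 to 262 reads per library and none reached a mean of 5. Because Ifit3 and Ifit3b are near copies, reads could have been split between them, and their sum was 5.47 and 3.59 (-0.61, interval -0.88 to -0.35). All 4 together had 10.9 and 6.58, or 1.65-fold less in the knockdown library (interval -0.92 to -0.53 log2). Of these 4 genes, 3 were at least 1.5-fold lower, as were 31.2% of all genes with a mean under 5. The IFIT ratios stayed below 0 after the correction for length and base composition (removal of the trend of the ratio on exonic length and GC content over all genes). The corrected ratios were -0.81, -0.62, -0.70 and -0.77 for Ifit1, Ifit2, Ifit3 and Ifit3b. The other scalings and the pseudocounts could not have turned their sign, since the scalings moved all ratios by too little and a pseudocount keeps the sign.

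Rsad2 and Cmpk2 are neighbouring genes, transcribed away from each other, whose enzymes act in 1 pathway: Cmpk2 phosphorylates nucleotides and Rsad2 (viperin) makes a chain-terminating nucleotide. Rsad2 had 7.08 in control and 3.80 in knockdown cells, 1.86-fold less (log2 ratio -0.90, interval -1.15 to -0.65). Cmpk2 had 15.4 and 10.4 (-0.56, -0.71 to -0.41). Both intervals lay below 0, and only that of Rsad2 lay wholly past 1.5-fold. Another antiviral effector, Eif2ak2 (PKR, a kinase that stops translation when it binds double-stranded RNA), had 2.82 and 1.67 (-0.75, -1.14 to -0.37). Bst2 went the other way, with 492 and 569 (0.21, 0.19 to 0.23), but its log2 ratio was -0.10 after the correction for length and base composition. Its exons add up to 903 bp, against a median of 4327 bp over all listed genes. The Mx genes were not listed.

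The 2-5A synthetases, which make the messenger 2-5A from ATP when they bind double-stranded RNA, had log2 ratios above 0 for each listed gene, of which Oas3 alone met the size rule. Oas3 had 3.68 in control and 6.86 in knockdown cells, 1.86-fold more (log2 ratio 0.90, interval 0.66 to 1.14). Oas1a, the most abundant synthetase per kilobase, had 24.3 and 32.4 (0.41, 0.31 to 0.52). Oas1g had 3.19 and 4.63 (0.54, 0.26 to 0.81). These 3 intervals lay above 0, and that of Oas3 lay wholly past 1.5-fold. After the correction for length and base composition the ratios were 0.93 for Oas3, 0.22 for Oas1a and 0.38 for Oas1g. That of Oas1a then lay outside its interval. Oas1b, annotated as a polymorphic pseudogene, had 2.34 and 2.48 (0.08, -0.27 to 0.43), and its sign turned when scaled by total reads or corrected for length and base composition. The Oas1 genes are paralogs that can share reads; Oas1a, Oas1b and Oas1g summed to 29.9 and 39.5 (0.41, 0.31 to 0.50). The OAS-like genes differed less than Oas3, Oas1a and Oas1g before the correction. Oasl1 had 98.99 and 89.9 (-0.14, -0.19 to -0.08), but -0.32 after the correction, outside that interval. Oasl2 had 8.73 and 9.16 (0.07, -0.11 to 0.25, below 0 when scaled by total reads), and 0.16 after the correction.

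Genes of the Isg15 system differed from each other. Isg15, the modifier itself, had 7.40 in control and 7.29 in knockdown cells (log2 ratio -0.02, interval -0.22 to 0.18, above 0 under TMM or median-of-ratios scaling). Usp18 (ENSMUSG00000030107, chr6:121245906-121270917), the protease that removes Isg15 and blocks signalling at Ifnar2, had 4.77 and 7.47 (0.65, 0.43 to 0.87). Usp18 fell short of 1.5-fold when scaled by total reads (0.54) or corrected for length and base composition (0.53). Among the enzymes that attach Isg15, Ube2l6 had 30.5 and 59.9 (0.97, 0.89 to 1.06) and Uba7 9.29 and 10.9 (0.23). The carrier Ube2l6 and the remover Usp18 thus had intervals above 0 and the modifier one that spanned 0, but after the correction Isg15 had a ratio of -0.33, outside that interval. Herc6, the ligase, was not listed.

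The 4 listed interferon-induced GTPases of the set had higher values in the knockdown library, under every alternative tried. Gbp2, a guanylate-binding protein that coats microbe-containing vacuoles, had 2.053 in control and 4.43 in knockdown cells, 2.16-fold more (log2 ratio 1.11, interval 0.80 to 1.43). Its family member Gbp3 had 1.06 and 1.28 (0.28, -0.24 to 0.79). Igtp, an immunity-related GTPase, had 3.68 and 5.44 (0.56, 0.31 to 0.82), and its exons overlap those of Irgm2 on the same strand (2.97 and 3.82). Irgm1, which regulates the other immunity-related GTPases, had 11.2 and 13.2 (0.24, 0.08 to 0.39). The interval of Gbp3 reached 0 and the other 3 did not. Only Irgm1 had a mean above 5, so none of the 4 met the size rule, although Gbp2 would without a minimum mean. The direction did not hold for the whole family. Of the Gbp genes searched outside the set, Gbp9 alone was listed, and it went the other way. It had 4.84 and 3.59 (-0.43, interval -0.70 to -0.17, and -0.16 after the correction).

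The sensors and transcription factors of the set showed no shared direction. Dhx58 (LGP2), a cytosolic RNA sensor, had 9.06 in control and 9.24 in knockdown cells (log2 ratio 0.03, interval -0.15 to 0.21, below 0 when scaled by total reads or corrected). Ifi204, a DNA sensor of the PYHIN family, had 1.195 and 0.689 from 78 and 35 reads (-0.79, -1.41 to -0.20). Irf7, the factor that amplifies interferon production, had 14.8 and 13.9 (-0.09, -0.24 to 0.05). Irf9, the DNA-binding partner of Stat2, had 24.1 and 31.5 (0.39, 0.28 to 0.49). Of these 4 genes Irf9 alone had an interval above 0 and Ifi204 alone one below it. Exons of Irf9 overlap Rnf31 on the same strand and those of Irf7 overlap Phrf1 on the opposite strand, so part of these reads may belong to the partner.

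The remaining members included the lowest ratio of the set and lay on both sides of 0. Ifi27l2a (ENSMUSG00000079017, chr12:103442167-103443680), a small gene next to Ifi27, had the lowest ratio of the set, with 3.91 in control and 1.14 in knockdown cells, 3.42-fold less from 255 and 58 reads (log2 ratio -1.77, interval -2.21 to -1.36). Ifi27 itself had 199 and 161 (-0.30, -0.34 to -0.26), and -0.54 after the correction, outside that interval. Both neighbours were therefore lower, by different amounts. Lgals3bp (ENSMUSG00000033880, chr11:118392751-118402092), a secreted galectin-binding glycoprotein, had 14.3 and 23.2 (0.70, 0.58 to 0.83), but 0.53 after the correction. Ifi35, a partner of Nmi, had 23.6 and 33.1 (0.49, 0.39 to 0.59), but 0.25 after the correction. Xaf1, an antagonist of the apoptosis inhibitor XIAP, had 7.69 and 10.03 (0.38, 0.20 to 0.56), and Rtp4, a receptor chaperone with antiviral activity, 7.19 and 8.49 (0.24, 0.05 to 0.43). These 4 intervals lay above 0. Trim30a, a feedback inhibitor of NF-kB signalling, had 3.16 and 2.88 (-0.13, -0.45 to 0.18, but 0.15 after the correction), and Parp14, an ADP-ribosyltransferase, 1.03 and 0.768 (-0.42, -1.03 to 0.17). Neither interval excluded 0.

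**Figure D3:**
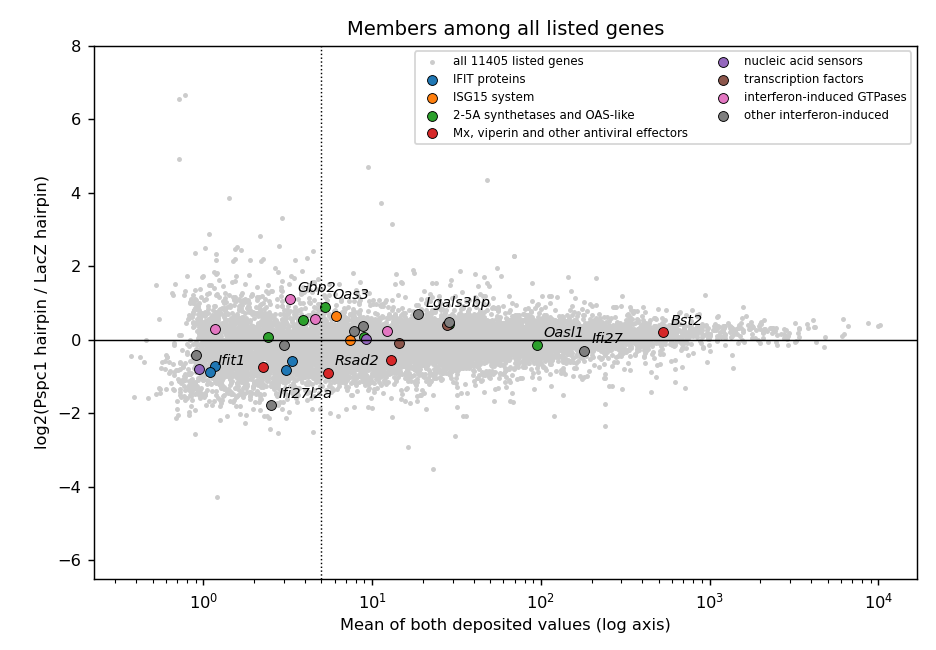
log2 ratio against the mean of both values (log axis) for all 11405 listed genes (grey) and the 32 members coloured by role; the dotted line marks a mean of 5. The members lie within the cloud of all genes, at mostly low means.

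Several members sit side by side in the genome, and the members of the IFIT, Rsad2, OAS1 and Gbp clusters had ratios of 1 sign within each cluster. The 4 IFIT genes span mm10 chr19:34550694-34650009 (99.3 kb) in the order Ifit2, Ifit3, Ifit3b and Ifit1, all below 0. The listed genes next to the cluster went both ways, with a log2 ratio of -0.21 for Lipa and 0.51 for Pank1, and Kif20b beyond it had 2.93 and 0.611 (-2.26). Rsad2 and Cmpk2 lie within chr12:26442746-26479837 (37.1 kb). On the side of Rsad2 the next listed gene, Rnf144a, ended at 26415254 and was lower still (14.8 and 4.94, -1.59). On the other side the next listed gene, Colec11, lay far off, starting at 28594173. It was higher (0.644 and 1.08, 0.75). Oas3, Oas1b, Oas1g and Oas1a span chr5:120753098-120907521 (154.4 kb), together with Oas1c, which is not a member and had 3.08 and 3.41 (0.15, interval -0.16 to 0.45). The 4 members there summed to 33.5 and 46.4 (0.47, interval 0.38 to 0.55). The sign of Oas1b depended on the scaling. Flanking genes were Ddx54 at 0.30 and Ptpn11 at -0.10. Gbp3 and Gbp2, at chr3:142560026-142638008, were both above 0, and the next listed gene after them, Kyat3, had 2.02 and 3.78 (0.90). The pair Oasl2 and Oasl1, at chr5:114896936-114937915, lay on opposite sides of 0. These ratios describe where the members lie, and a shared direction within a cluster was not tested.

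**Figure D4:**
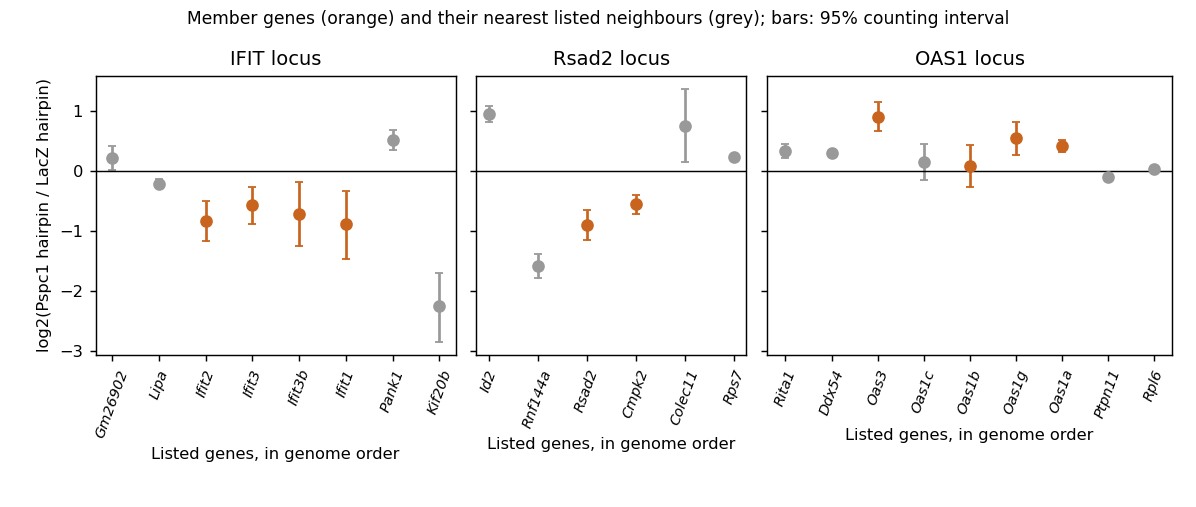
log2 ratio with 95% counting interval for members (orange) and the nearest listed neighbours (grey), at whatever distance, in genome order at the IFIT, Rsad2 and OAS1 clusters. The IFIT members lie between -0.57 and -0.89 and the OAS1 members between 0.08 and 0.90, while their neighbours lie on both sides of 0.

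The upstream steps of the pathway were read from lists of ligands, receptors, kinases and factors, inhibitors and sensors. No interferon gene was listed, out of 10 type I, II and III ligands searched, so ligand expression was not analysed here. Of 5 listed receptor chains 1 was higher by the 1.5-fold rule and none lower, where 4.14% and 10.1% of all genes of mean 5 or more were. This was Ifngr2, the signalling chain for interferon gamma, with 68.7 in control and 221.9 in knockdown cells (log2 ratio 1.69, interval 1.64 to 1.74). Its partner Ifngr1 had 20.01 and 22.2 (0.15), Ifnar1 76.2 and 83.3 (0.13), Ifnar2 29.3 and 41.5 (0.50), and Il10rb, which interferon lambda shares with interleukin 10, 29.99 and 28.4 (-0.08). The receptors other than Ifngr2 thus differed by less than 1.5-fold.

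None of 8 kinases, STATs and IRFs of mean 5 or more met the rule in either direction, where 4.14% of all genes of that level were higher and 10.1% lower. Stat3, whose exons overlap Stat5a on the opposite strand, had 78.2 and 113.6 (0.54), Tyk2 47.2 and 66.4 (0.49), Stat2 14.8 and 20.4 (0.46) and Jak1 34.6 and 30.04 (-0.20). Irf1, an interferon gamma target and factor, had 34.3 and 34.0 (-0.01), Irf3, which overlaps Bcl2l12 on the opposite strand, 128.3 and 143.7 (0.16), and Irf8 112.0 and 87.2 (-0.36). None of 7 inhibitors met the rule, set against the same shares, with 50.9 and 54.9 for Socs3, 244.2 and 253.4 for Ptpn1, 273.5 and 255.5 for Ptpn11, and 87.3 and 91.6 for Irf2bp1. Inhibitors of lower value differed more, in both directions. Socs1 had 7.31 and 10.4 (0.51, interval 0.33 to 0.69), Pias1 6.68 and 4.79 (-0.48, -0.71 to -0.25) and Trim24 6.27 and 4.89 (-0.36, -0.59 to -0.13).

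Among 11 sensors and adaptors of mean 5 or more, 2 were higher and 1 lower by the rule, where 4.14% and 10.1% of all genes of that level were. Ikbke, a kinase that activates Irf3, had 20.5 and 32.5 (0.67, interval 0.56 to 0.77). Ticam1, the adaptor of Tlr3, had 32.6 and 50.5 (0.63, 0.55 to 0.72), but 0.47 after the correction for length and base composition. Cgas, the cytosolic DNA sensor, had 13.3 and 8.35 (-0.67, -0.84 to -0.50), and after the correction its ratio of -0.58 fell just short of 1.5-fold. Tmem173 (STING), which it signals through, had 55.5 and 81.5 (0.55). So sensor and adaptor of the same route lay on opposite sides of 0. Trim25 (142.8 and 147.1), Adar (59.6 and 65.2), Mavs (49.1 and 53.0) and Myd88 (37.3 and 52.1) did not meet the rule. Ddx58 (RIG-I), an RNA sensor that interferon induces, had 29.9 and 21.5 (-0.48).

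A further 50 interferon-induced genes outside the set gave 22 of mean 5 or more, of which 3 were higher by the rule (Ube2l6, Slfn2 and Tap1) and none lower, where 4.14% and 10.1% of all genes of that level were. Their median log2 ratio was 0.24, with 16 of 22 above 0, against -0.01 and 48.6% of all genes of mean 5 or more. Of the 22, 16 had a mean of at least 20. Of these 16, 12 (75%) were above 0 against 55.0% of all genes at that mean, with medians of 0.27 and 0.04. After the length and GC correction the median of the 22 was 0.18, against -0.01 for all genes of mean 5 or more. Slfn2, a Schlafen family gene, had 7.601 and 14.6 (0.94, interval 0.78 to 1.11). Tap1, the peptide transporter of class I antigen presentation, had 34.95 and 61.3 (0.81, 0.73 to 0.89), and its exons overlap Psmb9 on the opposite strand. The most abundant of these genes differed by less than 1.5-fold, with 450.2 and 596.6 for Ly6e (0.41), 347.7 and 318.4 for Ifitm3 (-0.13) and 285.3 and 350.1 for B2m (0.29). Others of high level were Shisa5 (229.4 and 279.8), Ifitm2 (134.5 and 172.3) and Pml (135.1 and 160.5). The chemokine gene Cxcl10, a common readout of interferon signalling, had 6.13 and 5.91 (-0.05, interval -0.27 to 0.17).

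**Figure D5:**
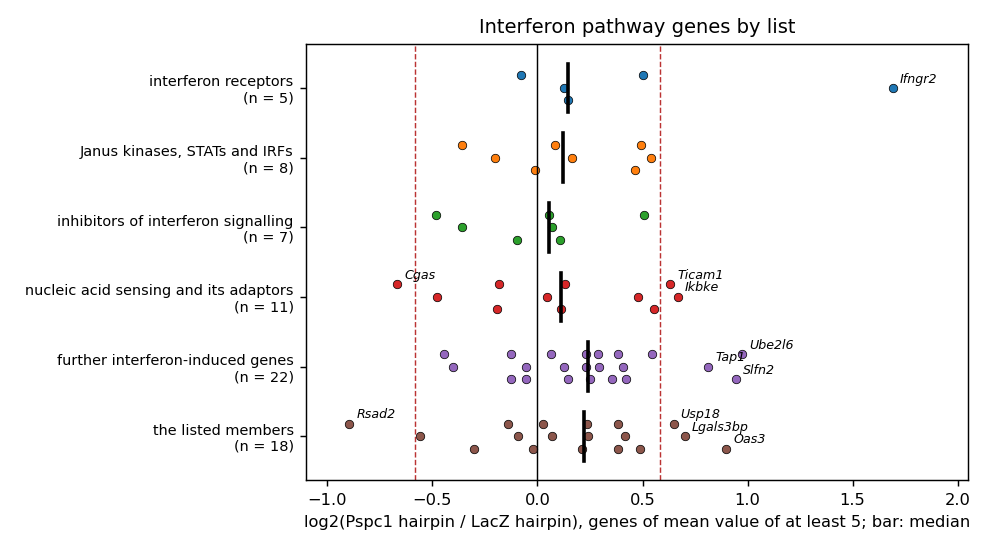
log2 ratio of genes whose mean reached 5, in 5 lists of interferon pathway genes and in the member set; black bars are medians and dashed lines mark 1.5-fold. Ifngr2 (1.69) stands apart among the receptors, and the medians of the 6 groups lie between 0.05 and 0.24.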

How the data were processed

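Poly-A RNA of 2 MS1 libraries, 1 per hairpin, was sequenced. Groups came from the treatment label. The submitters' processing notes name featureCounts 2.0.0, DESeq 1.39.0, Trimmomatic 0.39, HISAT2 2.1.0 and the build mm10. The sources used here do not say how the tools were set, which annotation was counted, or how genes were filtered and counts scaled. What the authors deposited is a scaled gene-level signal. Every value was a whole multiple of 1 step per library (0.0153 and 0.0197, tolerance 0.01 reads), which gave the reads behind each value and exact conditional binomial (Clopper-Pearson) intervals. No gene was listed at 0, the lowest mean of both values was 0.372, and no pseudocount was used.

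Member intervals were 0.05 to 1.21 log2 wide. The members, lists and size rules were chosen with earlier results of these data known. The design had allowed for raw counts; as the values had been scaled before deposit, no further scaling was applied to them. Every listed member is named with both values. Of each pathway list, up to 6 genes of mean 20 or more by largest mean are named, and those meeting the 1.5-fold rule. Stat2, Uba7, Irgm2, Gbp9, Cxcl10, Ddx58, Socs1, Pias1 and Trim24 were added after their values were seen, as were the genes flanking the clusters. Symbols were found for 11399 of 11405 identifiers. Exonic length (exons merged) and overlaps came from GENCODE M21; base composition came from the longest transcript. Alternatives were 3 other scalings, pseudocounts of 0.5 and 5, other minimum means and folds, and removal of a quadratic trend on length and GC content. The steps were tested on simulated reads. Python 3.11.15, numpy 2.4.6, pandas 2.3.3, scipy 1.17.1 and matplotlib 3.10.9 were used.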

Additional observations from a re-analysis of the deposited data

How the results depend on the processing

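With 1 library per group, no library could be left out. No paired analysis was possible because each group holds a single library. Scaling by total reads moved every log2 ratio by -0.10. Of 32 members, 6 changed sign under an alternative (Bst2, Dhx58, Isg15, Oas1b, Oasl2 and Trim30a), and the other 26 kept their sign under all 6. A pseudocount cannot change a sign, and each scaling shifts all ratios by the same amount. For members further from 0 than that shift, only the length and GC correction could have changed the sign. The count of 3 members at least 1.5-fold higher became 0 with a pseudocount of 5, a minimum mean of 20 or a threshold of 2-fold. It became 1 after the length and GC correction or when the whole interval had to pass 1.5-fold (Oas3 in both cases), and 7 with a threshold ratio of 5 to 4. The count of 1 lower became 2 when scaled by total reads (Rsad2 and Cmpk2) or at a ratio of 5 to 4, 0 with a pseudocount of 5, a minimum mean of 20 or 2-fold, 6 with a minimum mean of 1, and 7 without a minimum. The counts at 2-fold stayed at 0 under all 7 alternatives. This carries little weight, since members of mean 20 or more had log2 ratios from -0.30 to 0.49, well inside 2-fold. The median log2 ratio of 0.22 stayed above 0 under these alternatives taken singly, at 0.049 without a minimum mean and up to 0.30 with a minimum of 20. It did not stay above 0 in every setting. At a minimum mean of 50, which 3 members reached, it was -0.14. Over all 32 members, without a minimum mean, it was -0.099 after the length and GC correction. Members under a mean of 5 were limited by depth, with as few as 35 reads in a library. Except where an alternative tests fewer genes or shrinks low values, the cause was not tested.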

Other observations

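Low-valued genes of the wider interferon lists, named after their values were seen, also went both ways. Sp110, a nuclear body protein gene, had 1.18 in control and 2.46 in knockdown cells (log2 ratio 1.06, interval 0.64 to 1.49). Ccl5, an interferon- and NF-kB-induced chemokine gene, had 3.75 and 2.44 (-0.62, -0.94 to -0.30). Jak2, the kinase bound to Ifngr2, had 1.88 and 1.14 (-0.72, -1.20 to -0.26), and Ptpn2, a phosphatase that acts on Jak1, had 5.07 and 2.74 (-0.89, -1.19 to -0.60).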
